A study of Mus musculus with 6 samples.

Results

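The planar cell polarity genes described here are *Vangl1*, *Vangl2*, *Celsr1*, *Celsr2*, *Celsr3*, *Prickle1*, *Prickle2*, *Fat4*, *Dchs1* and *Scrib*. They are taken by name rather than by a measured value, though with earlier results of these data known, and each of the 10 had its own locus among the 24402 loci of the expression table. RNA was taken from whole lungs of C57BL/6 mouse embryos at 12.5 *dpc*, with 3 libraries from wild-type embryos (control) and 3 from *Yap* flox/flox; *Shh* Cre/+ embryos (*Yap* mutant). Cre expressed from the *Shh* locus is active in the lung epithelium, so the mesenchyme, vessels and nerves of the mutant lungs keep an intact *Yap* gene while contributing to the same RNA. The table gives a single pooled FPKM value per genotype (fragments per kilobase of transcript, scaled to library size, a level that can be compared between genes of different length). No spread between libraries, depth or test was therefore available, and a fold below compares 2 pooled values. Whether the 3 libraries of a genotype came from separate embryos or from pools is not given in the sources used here.

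Planar cell polarity is the shared orientation of cells within the plane of a tissue. In its core system, CELSR cadherins bridge neighbouring cells, FZD receptors with DVL gather on one face of the cell, and VANGL proteins with PRICKLE gather on the opposite face. A parallel system uses the giant cadherins FAT4 and DCHS1, which bind each other across cell borders, and the scaffold protein SCRIB works with VANGL2 as well as in apical-basal polarity. In the mouse lung, inherited loss of function of *Celsr1*, *Vangl2* or *Scrib* is known to disturb airway branching, the process the study examined in lungs without epithelial *Yap*.

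The pathway did not move as a block between the genotypes. On the FPKM scale, with 0.1 FPKM added to each value before folds and log2 ratios were taken, *Celsr1* was 2.09-fold lower in *Yap* mutant lungs and *Fat4* was 1.67-fold higher, while the other 7 members averaging 1 FPKM or more differed by 1.28-fold or less. *Celsr3* was near the bottom of the scale in both genotypes. The largest differences in each direction thus lay in different arms of the system, the core bridging cadherins and the FAT4 and DCHS1 cadherins.

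Some differences between the pools touch every value below. *Yap1* itself, read over its whole locus and from all lung cells, was 76.1 FPKM in control lungs against 65.6 FPKM in the mutant, and no exon-level value was used here to read the floxed part alone. Of 20 epithelial marker loci 18 were lower in the mutant, and the median log2 ratio was −0.60, although *Epcam* and *Cdh1*, which mark epithelial cells at large, differed less (74.9 against 55.6 FPKM and 20.3 against 17.7 FPKM). *Shh*, which is among these markers, has a Cre allele at its own locus in the mutant and not in the control, and without it 17 of 19 loci were lower with the same median to 2 decimals. All 8 cardiac muscle loci averaging 1 FPKM or more were higher, *Tnnt2* for example at 10.7 FPKM in control lungs against 107 FPKM in the mutant. The summed FPKM of 4 Y-linked loci was 0.0306 in control lungs against 36.4 in the mutant, and the sex of the embryos is not given in the sources used here. With almost no Y-linked RNA in the control pool, sex and genotype cannot be told apart in these values. In whole-lung RNA, fewer cells of a type and less RNA per cell cannot be told apart.

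**Figure D1:**
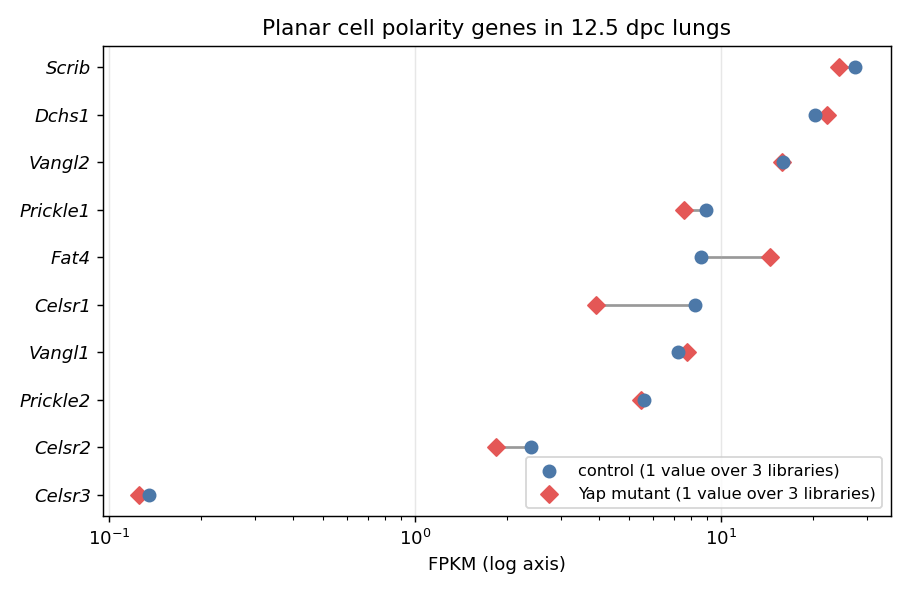
Pooled FPKM of the 10 planar cell polarity genes in control and *Yap* mutant lungs, each point being the value of 3 libraries, on a log axis. The line joining the points is longest for *Celsr1* and *Fat4*, and the points of *Vangl2* and *Prickle2* nearly coincide. No error bar can be drawn, since there is 1 value per genotype.

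Because FPKM is scaled by length, levels can be set side by side between genes. In control lungs the highest level was that of *Scrib* at 27.3 FPKM, followed by *Dchs1* at 20.3 FPKM and *Vangl2* at 16.0 FPKM. *Prickle1* (8.95 FPKM), *Fat4* (8.61 FPKM), *Celsr1* (8.25 FPKM) and *Vangl1* (7.23 FPKM) lay close together, and *Prickle2* (5.59 FPKM) and *Celsr2* (2.39 FPKM) were lower. *Celsr3* was lowest, at 0.136 FPKM. Which neighbours in this order differ beyond their spread cannot be said, since the spread is not known. In *Yap* mutant lungs the top 3 and the bottom 2 were the same genes, and the changes of rank lay in between. *Fat4* moved from rank 5 to rank 4 and *Celsr1* from rank 6 to rank 8. Members whose levels differed less moved too, *Prickle1* from rank 4 to 6, *Vangl1* from 7 to 5 and *Prickle2* from 8 to 7. The summed level of the 10 genes was 104.8 FPKM in control lungs against 103.6 FPKM in the mutant.

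The CELSR cadherins are large multi-pass proteins related to fly Flamingo that bind their like on the next cell and so pass polarity across the border. *Celsr1*, the member best known from epithelia, lies on chromosome 15 (chr15:85898747-86033881, mm10, minus strand). Its value was 8.25 FPKM in control lungs against 3.90 FPKM in the mutant, a log2 ratio of −1.06. Of the 12716 loci averaging 1 FPKM or more, 140 (1.10%) had a ratio as low or lower. *Celsr2*, whose product is found widely in epithelia and nerve cells (chr3:108390848-108416035, minus strand), was 2.39 FPKM in control lungs against 1.85 FPKM in the mutant. Its log2 ratio was −0.35, in the direction of *Celsr1*, and 6.20% of loci were as low. *Celsr3*, best known for its part in axon tract formation (chr9:108826320-108852969, plus strand), was 0.136 FPKM in control lungs against 0.126 FPKM in the mutant, and no fold is read from these values.

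With *Celsr1* and *Celsr2* both lower on this scale, the summed CELSR level was 10.8 FPKM in control lungs against 5.87 FPKM in the mutant. *Celsr1* made up 76.6% of that sum in control and 66.4% in *Yap* mutant lungs, and *Celsr2* 22.2% and 31.4%. *Celsr1* thus remained the main CELSR transcript, at 3.45 times the level of *Celsr2* in control and 2.11 times in *Yap* mutant lungs. The *Celsr1* values cannot be assigned to a cell type in whole-lung RNA. Beside the epithelial median of −0.60, 3 of the 20 epithelial marker loci (*Esrp2*, *Shh* and *Sox2*, chosen after their values were seen) had a ratio as low as that of *Celsr1*, as did 3 of the 6 smooth muscle loci (*Acta2*, *Actg2* and *Myh11*, likewise) and none of the mesenchymal, neural, endothelial, mesothelial or cardiac loci. Relative to that median the log2 ratio of *Celsr1* was −0.46, short of 1.5-fold. That reading depends on the markers chosen. *Epcam* and *Cdh1*, among the general epithelial markers, had log2 ratios of −0.43 and −0.20, and relative to either of them *Celsr1* would be lower still. Against this, 11 of the 20 epithelial loci were themselves at least 1.5-fold lower. Relative to each of those *Celsr1* would fall short of 1.5-fold lower. The part of epithelial RNA content in the *Celsr1* value was not tested.

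VANGL proteins are multi-span membrane proteins that recruit PRICKLE and keep FZD and DVL from their side of the cell. *Vangl2* (chr1:172001001-172027308, minus strand) was 16.0 FPKM in control lungs against 15.9 FPKM in the mutant, a log2 ratio of −0.01. *Vangl1* (chr3:102153592-102204698, minus strand) was 7.23 FPKM in control lungs against 7.77 FPKM in the mutant, a log2 ratio of 0.10. Both VANGL genes thus lay in the middle of all loci, for which the 25 and 75 percentiles of the log2 ratio were −0.11 and 0.11. *Vangl2* supplied 68.9% of the VANGL level in control and 67.1% in *Yap* mutant lungs. As *Vangl2* was level and *Celsr1* was not, the ratio of *Celsr1* to *Vangl2* was 0.515 in control lungs against 0.246 in the mutant.

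PRICKLE proteins are cytoplasmic LIM-domain proteins that bind VANGL on the inner face of the membrane. *Prickle1* (chr15:93499114-93595891, minus strand) was 8.95 FPKM in control lungs against 7.58 FPKM in the mutant, a log2 ratio of −0.24, and 9.96% of loci were as low. *Prickle2* (chr6:92370892-92706184, minus strand) was 5.59 FPKM in control lungs against 5.50 FPKM in the mutant, a log2 ratio of −0.02. On this scale neither reached 1.5-fold, and *Prickle1* supplied 61.6% of their summed level in control and 58.0% in *Yap* mutant lungs.

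**Figure D2:**
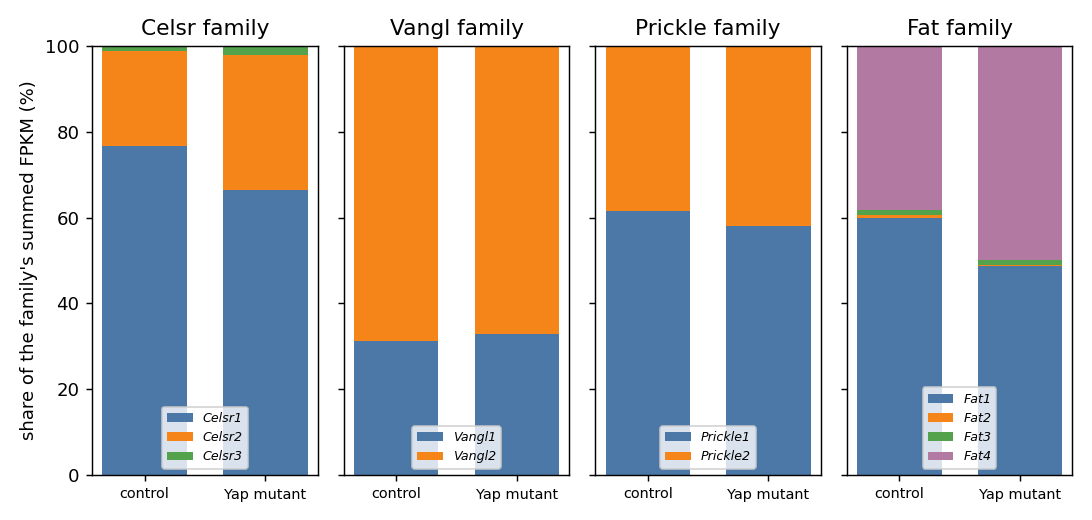
Share (percent) of each family's summed FPKM taken by each paralogue in control and *Yap* mutant lungs, for the CELSR, VANGL, PRICKLE and FAT families; each bar adds up to the whole family. The *Celsr1* share is 76.6% in control and 66.4% in *Yap* mutant lungs and the *Fat4* share is 38.4% and 49.9%, while the VANGL and PRICKLE shares move by a few percentage points.

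FAT4 and DCHS1 are giant cadherins that act as a receptor and ligand pair, and their binding is tuned by the Golgi kinase FJX1. In flies, Fat and Dachsous also act upstream of the Hippo pathway, whose nuclear effector is the fly counterpart of YAP. *Fat4* (chr3:38885299-39012269, plus strand) was 8.61 FPKM in control lungs against 14.4 FPKM in the mutant, a log2 ratio of 0.74. A ratio as high or higher was found at 404 of the 12716 loci (3.18%). *Dchs1* (chr7:105752846-105787653, minus strand) was 20.3 FPKM in control lungs against 22.2 FPKM in the mutant, a log2 ratio of 0.13. The pair therefore stood in a different proportion in each genotype, with *Fat4* at 0.424 times the level of *Dchs1* in control and 0.651 times in *Yap* mutant lungs.

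The paralogues of *Fat4* had ratios of their own. *Fat1*, a FAT cadherin found in many epithelia, was 13.5 FPKM in control lungs against 14.1 FPKM in the mutant, a log2 ratio of 0.07, and *Fat2* and *Fat3* were below 1 FPKM in both genotypes. The list of other FAT and Dachsous genes and *Fjx1* had 2 loci averaging 1 FPKM or more, both higher, with a median of 0.10. *Fat4* made up 38.4% of the summed FAT level in control and 49.9% in *Yap* mutant lungs. Against *Celsr1*, the other member past 1.5-fold, *Fat4* stood at 1.04 times its level in control and 3.70 times in *Yap* mutant lungs. Of 15 mesenchymal marker loci 10 were higher in the mutant (median log2 ratio 0.06). At least 1.5-fold higher was 1 of them, *Fgf10*, and at least 1.5-fold lower were 3, *Foxf1*, *Twist2* and the lesser of 2 *Tcf21* loci (all chosen after their values were seen). *Pdgfra*, a general mesenchymal marker, was 39.8 FPKM in control lungs against 40.4 FPKM in the mutant. A ratio as high as that of *Fat4* was found at 1 of the 15 mesenchymal loci (*Fgf10*), 2 of the 20 epithelial loci (*Id2* and *Sftpc*), 1 of the 6 smooth muscle loci (*Des*) and all 8 cardiac loci. These epithelial and smooth muscle genes were also chosen after their values were seen, and the part of heart RNA in the *Fat4* value was not tested.

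The stretches just upstream of the start sites of *Fat4* and *Celsr2* are shown because these are the members with a RefSeq promoter entry that lay highest and lowest. Each holds 250 bases of GRCm38.p6 (the same build as mm10) taken from RefSeq, written 5′ to 3′ on the gene's own strand, with CpG pairs in capitals. The *Fat4* stretch is chr3:38886690-38886939, plus strand, and that of *Celsr2* is chr3:108415580-108415829, minus strand.
*Fat4*: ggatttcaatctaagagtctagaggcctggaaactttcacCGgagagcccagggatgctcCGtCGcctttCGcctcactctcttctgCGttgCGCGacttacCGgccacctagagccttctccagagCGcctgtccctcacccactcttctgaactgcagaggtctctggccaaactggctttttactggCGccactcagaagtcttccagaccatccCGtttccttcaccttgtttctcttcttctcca
*Celsr2*: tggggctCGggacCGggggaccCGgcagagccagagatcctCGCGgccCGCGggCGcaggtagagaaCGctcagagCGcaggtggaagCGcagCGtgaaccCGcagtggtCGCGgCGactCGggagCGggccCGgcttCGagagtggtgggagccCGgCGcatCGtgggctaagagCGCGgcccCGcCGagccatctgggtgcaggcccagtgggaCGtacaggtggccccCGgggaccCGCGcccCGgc
The *Celsr2* stretch holds 32 CpG pairs and is 75.2% G and C, and 4.58% of all RefSeq promoters hold as many CpG pairs. The *Fat4* stretch holds 11 CpG pairs and is 54.8% G and C, close to the 52.4% that is the median of all promoters. The letters GGAATG, which TEAD factors (the DNA-binding partners of YAP) are known to bind, were searched on both strands of the 300-base windows from 250 bases before to 50 after each start. They were found in 0 of the 10 windows of *Fat4*, *Celsr2*, *Vangl2*, *Celsr3*, *Prickle1* and *Prickle2*, and in 14.7% of all 32851 windows with an entry. Several of the 10 windows are alternative starts of *Prickle1* or *Prickle2*. *Celsr1*, *Vangl1*, *Dchs1* and *Scrib* had no entry and were not searched. A match or its absence is a description of these letters in this window only.

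SCRIB is a cytoplasmic scaffold protein that, with DLG and LLGL, holds the basolateral side of epithelial cells, and it also binds VANGL2. *Scrib* (chr15:76047167-76069793, minus strand) was 27.3 FPKM in control lungs against 24.3 FPKM in the mutant, a log2 ratio of −0.17. Of the 14 loci of the apical-basal complexes, *Scrib* among them, 12 were lower in the mutant on this scale, and the median log2 ratio was −0.16. *Scrib* is itself a middle locus of this list and helps set that median, so its nearness to the median is no comparison. The 14 ratios ran from −0.75 to 0.31. The lowest was that of *Crb3*, an apical determinant of epithelial cells and the only locus of this list past 1.5-fold. It was 10.9 FPKM in control lungs against 6.44 FPKM in the mutant. Among 15 loci of the Hippo core 11 were lower, with a median of −0.08, and 1 was past 1.5-fold. This was the lesser of 2 loci named *Tead1* (chosen after its value was seen), at 1.29 FPKM in control lungs against 2.17 FPKM in the mutant. The main *Tead1* locus, at the same place, was 18.3 FPKM in control lungs against 19.0 FPKM in the mutant.

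**Figure D3:**
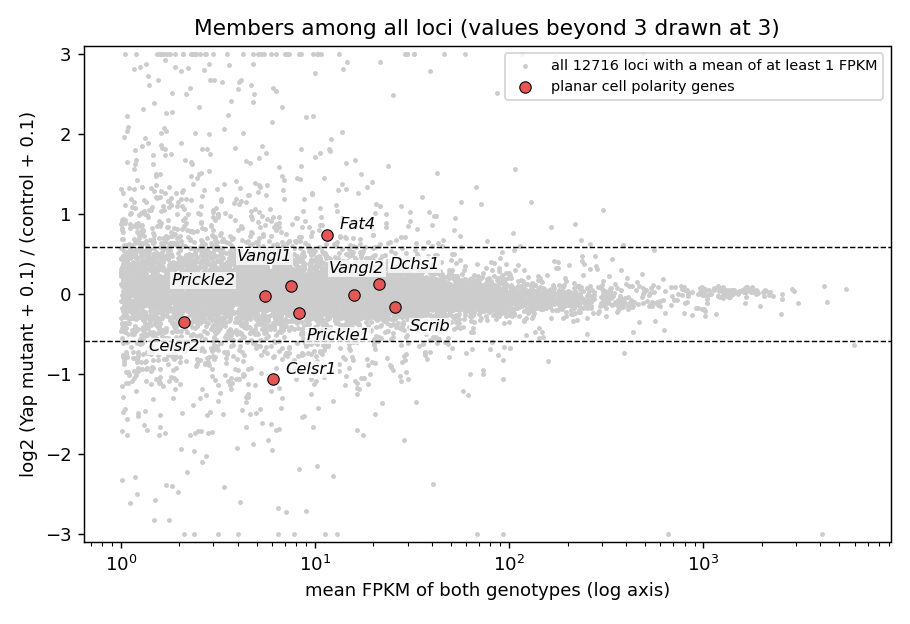
Log2 ratio of *Yap* mutant over control against mean FPKM (log axis) for all 12716 loci averaging 1 FPKM or more (grey) and the 9 planar cell polarity genes among them (red); dashed lines mark 1.5-fold. *Celsr1* lies below the lower line and *Fat4* above the upper line, and the other 7 lie between them; the ratios are on the deposited scale.

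Read against all loci, the members as a list had nearly the same median. Of the 9 members averaging 1 FPKM or more, 3 were higher and 6 lower in the mutant, and the median log2 ratio was −0.02. *Celsr3* did not pass that minimum. Over all 12716 loci 51.8% were lower and the median was −0.01. Of the members 1 (*Celsr1*) was at least 1.5-fold lower, beside 3.30% of all loci, and 1 (*Fat4*) was at least 1.5-fold higher, beside 4.44%. Among the 6470 loci with a mean of 5 to 30 FPKM, the range that holds most of the members, 2.24% were as much lower and 2.70% as much higher. The direction of most members changed under 1 reference only. Relative to the epithelial median of −0.60 all 10 except *Celsr1* had a positive log2 ratio, though no fold is read for *Celsr3*. On that scale 4 members were at least 1.5-fold higher, *Vangl2* among them at 0.586, just past the cut of 0.585. A ratio as high as that of *Vangl2* was found at 51.4% of the 12716 loci, so at least that share of all loci passed this cut. The count of 4 is therefore no result about the members. Whether an epithelial reference suits members expressed in other cells was not tested. With both genotypes scaled to the same FPKM sum, only *Vangl2* and *Prickle2* changed sign, at 0.03 and 0.02.

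The wider pathway was read from a list of 51 other genes grouped by role, 49 of which had a locus and 46 an average of 1 FPKM or more. Of these 21 were higher and 25 lower in *Yap* mutant lungs on the FPKM scale, with a median log2 ratio of −0.01. None of the 46 was at least 1.5-fold higher and 2 were at least 1.5-fold lower, beside 4.44% and 3.30% of all loci in those directions. The 2 lower loci were WNT ligands. *Wnt5a*, which orients planar polarity through ROR receptors in several tissues, was 9.68 FPKM in control lungs against 4.98 FPKM in the mutant, a log2 ratio of −0.95. *Wnt11*, another ligand known for convergent extension movements, was 13.6 FPKM in control lungs against 8.04 FPKM in the mutant, a log2 ratio of −0.75.

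The other ligand and co-receptor genes were mixed. The whole list of 8 had 2 higher and 6 lower loci with a median of −0.20, and the 6 without *Wnt5a* and *Wnt11* had 2 higher and 4 lower with a median of −0.07. *Ptk7*, a pseudokinase receptor needed for polarity in the mouse, had the highest level of them and was 87.0 FPKM in control lungs against 86.1 FPKM in the mutant. *Wnt4*, named after its value was seen, did not reach a mean of 1 FPKM, at 1.02 FPKM in control lungs against 0.473 FPKM in the mutant.

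FZD receptors, DVL proteins and their partners, the side of the core system opposite VANGL and PRICKLE, had 5 higher and 3 lower loci with a median of 0.08. *Fzd7* had the highest level, 48.9 FPKM in control lungs against 57.4 FPKM in the mutant. The cytoskeletal effectors, which carry the polarity signal to actin and myosin, had 6 higher and 5 lower loci with a median of 0.02. *Cdc42*, a small GTPase, was 274.5 FPKM in control lungs against 272.6 FPKM in the mutant. The largest ratio of that list was 0.48, at *Dact1*, a DVL-binding protein named after its value was seen.

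The ciliary effectors had 2 higher and 3 lower loci with a median of −0.10. *Fuz*, which acts in the building of cilia, was 6.43 FPKM in control lungs against 9.14 FPKM in the mutant, a log2 ratio of 0.50. Genes of traffic and turnover had 1 higher and 4 lower loci with a median of −0.06, and *Gipc1*, an adaptor in the transport of VANGL2, was 55.2 FPKM in control lungs against 57.2 FPKM in the mutant. The partners of SCRIB had 3 higher and 4 lower loci with a median of −0.01. *Llgl1* was 45.2 FPKM in control lungs against 42.0 FPKM in the mutant, while *Llgl2*, named after its value was seen, was 7.69 FPKM in control lungs against 5.58 FPKM in the mutant.

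**Figure D4:**
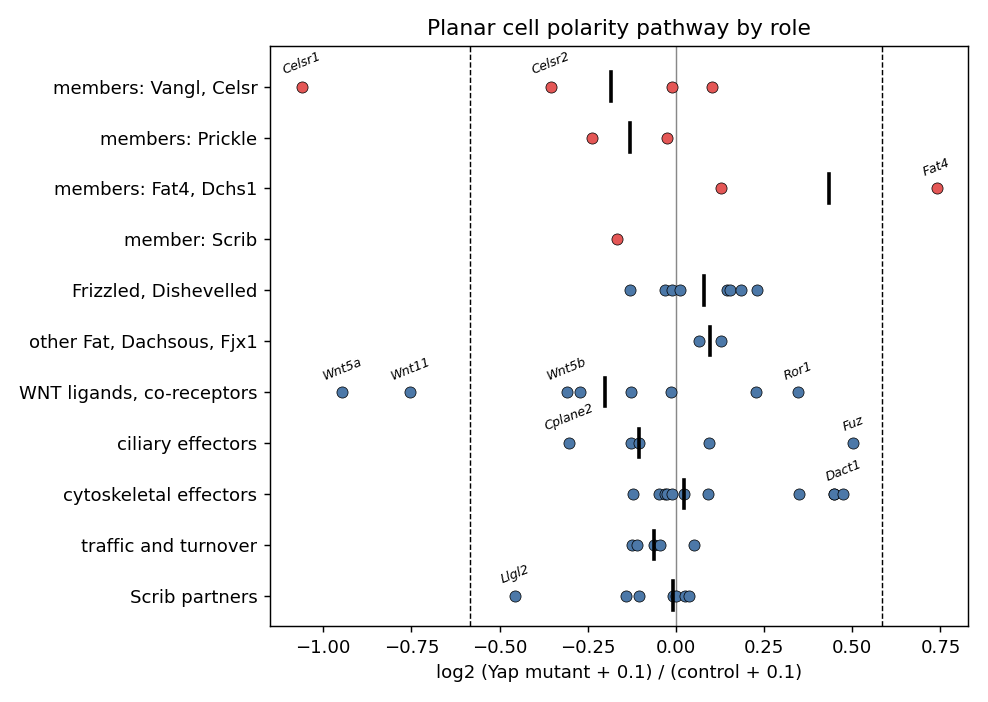
Log2 ratio of *Yap* mutant over control for each planar cell polarity gene (red) and each other pathway gene (blue) averaging 1 FPKM or more, by role; short black bars are medians and dashed lines mark 1.5-fold. Outside the lines lie *Celsr1*, *Wnt5a* and *Wnt11* on the lower side and *Fat4* on the upper side, on the deposited scale.

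The levels of other cell types differed between the pools beside these values, and their part in the members' values was not tested. Nerve cells also use *Celsr2*, *Celsr3* and the PRICKLE genes. Of 10 neural marker loci averaging 1 FPKM or more 9 were lower in the mutant, and the median log2 ratio was −0.64 beside a summed level of 27.1 FPKM in control lungs against 17.6 FPKM in the mutant. *Tubb3*, a neuronal tubulin, was 4.46 FPKM in control lungs against 2.52 FPKM in the mutant, and *Elavl3*, a neuronal RNA-binding protein, was 0.407 FPKM and 0.261 FPKM. *Phox2a*, *Stmn2* and *Stmn3* were also at least 1.5-fold lower, with log2 ratios from −0.95 to −0.77. None of the 11 neural loci was at 0 in a genotype.

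Smooth muscle markers were lower at 5 of 6 loci, with a median of −1.06 and a summed level of 283 FPKM in control lungs against 145 FPKM in the mutant. The summed epithelial level was 691 FPKM in control lungs against 641 FPKM in the mutant, and without *Id2* and *Sftpc*, the 2 epithelial loci that were higher, it was 545 FPKM against 374 FPKM. The summed mesenchymal level was 1677 FPKM and 1685 FPKM. Endothelial markers were higher at 7 of 8 loci with a median of 0.18, mesothelial markers at 3 of 4 loci with a median of 0.31, and erythroid markers at 8 of 8 loci with a median of 0.15. The summed cardiac level was 62.4 FPKM in control lungs against 588 FPKM in the mutant. No locus of these lists was at 0 in a genotype. *Celsr1* thus had a lower ratio than the epithelial and neural medians and one equal to the smooth muscle median to 2 decimals. *Fat4* had a higher ratio than the mesenchymal, endothelial and mesothelial medians and a lower one than the cardiac median of 3.11.

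**Figure D5:**
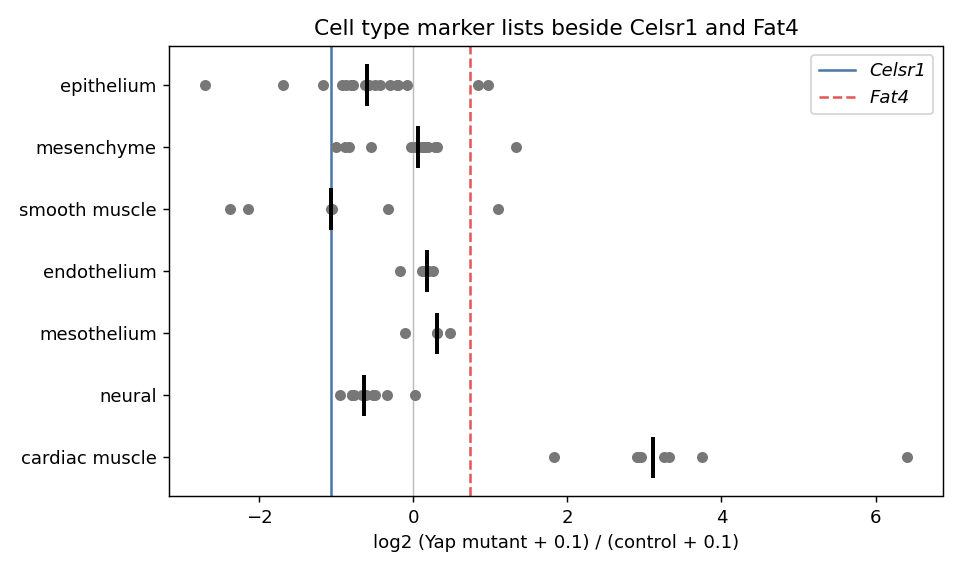
Log2 ratio of *Yap* mutant over control for the marker loci of the cell types named on the vertical axis, averaging 1 FPKM or more (grey points, black bars at medians), with vertical lines at *Celsr1* (−1.06) and *Fat4* (0.74). Epithelial, neural and smooth muscle medians are below 0, and all 8 cardiac loci lie to the right of *Fat4*.

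The members differ widely in gene structure, which FPKM scales for but which the pooled values do not show exon by exon. In the GENCODE annotation *Fat4* has 17 exons and a coding length of 14943 bases, *Dchs1* 21 exons and 9873 bases, and *Celsr1* 35 exons and 9102 bases. *Vangl1* and *Vangl2* are compact, with coding lengths of 1578 and 1683 bases, and *Prickle1* and *Prickle2* have 2496 and 2703 bases. *Scrib* has 38 exons and 4995 coding bases. Some members overlap genes on the other strand. The libraries kept strand, but the sources used here do not say whether the counting did. *Fat4* overlaps the antisense gene *C230034O21Rik* over 2961 bases, *Dchs1* the pseudogene *Gm15645* over 25333 bases, and *Vangl1* the antisense gene *Gm16160* over 743 bases. *Celsr1* overlaps no other annotated gene.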

How the data were processed

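RNA was measured in whole lungs of 3 control and 3 *Yap* mutant samples at 12.5 *dpc*. Per the labels' processing notes TopHat, Cuffdiff and the build mm10 were used, without versions or settings. The deposited tables, 1 of 24402 loci and 1 of 2395, hold 1 FPKM value per genotype, made by the authors from all its libraries. The unit FPKM was inferred from their Cuffdiff layout. They also hold the authors' own log2 fold change and p-value, which were not used. No column belonged to other samples. Single-library values were not used here, and so no depth, standard deviation or test could be had.

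For each locus log2((*Yap* mutant FPKM + 0.1)/(control FPKM + 0.1)) was computed, a scale that understates the change of low genes. Loci averaging 1 FPKM or more were counted, and 1.5-fold was the threshold. The 2 tables differed by over 1% at 25 shared loci, none of them a polarity or Hippo locus. Starts had 1 added, since 9306 loci start 1 below the RefSeq gene and 617 at it. Of 21010 loci with a single symbol in RefSeq, 98.7% overlapped the gene of that name. Of the members 6 matched a RefSeq promoter. The members and gene lists were chosen with earlier results of these data known. Named were all members, the highest and the 1.5-fold loci of each pathway list, and set markers; other genes are marked as chosen after their values were seen. Some marker genes covered by it are not reported here. Alternatives were pseudocounts of 0 and 1, a mean of at least 5 FPKM, no minimum, folds of 1.25 and 2, other scalings and the shorter table. The scripts were tested on simulated data and used Python 3.11.15, numpy 2.4.6, pandas 2.3.3 and matplotlib 3.10.9.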

Additional observations from a re-analysis of the deposited data

How the results depend on the processing

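Centred on the epithelium median, 4 members were at least 1.5-fold higher and 0 lower (1 and 1 as reported), with a median log2 ratio of 0.57 in place of −0.02. On that scale 24 of the 46 other pathway loci were at least 1.5-fold higher and 0 lower (0 and 2 as reported). The medians were 0.59 for the wider pathway, 0.43 for the apical-basal list and 0.52 for the Hippo core. This centring adds the same amount to every ratio, and at least 51.4% of all loci averaging 1 FPKM or more passed its upper cut. Neither count of higher loci is therefore a result about these genes. With a fold of 2, 0 members were higher and 0 other pathway loci lower, and under the smaller of the alternative folds there were 2 lower members and 6 higher other pathway loci. The shares of all loci past these alternative folds were not computed, so these counts have no background beside them and are not read further. The other 60 values of members' and lists' counts and medians stayed within 0.1 on the log2 scale or 1.5 times for counts. For some settings this was fixed beforehand. The shorter table held the same values for these loci, and centring on the median of all loci moves each ratio by only that median of −0.01. Over all settings the log2 ratio of *Celsr1* ranged from −1.08 to −0.46 and that of *Fat4* from 0.68 to 1.34, while that of *Celsr2* ranged from −0.37 to 0.24. Leaving *Shh* out of the epithelium list, chosen after seeing the data, kept its median at −0.60. No paired analysis was possible because the tables give 1 pooled value per genotype, which also kept single libraries from being left out. The spread between libraries limits every statement here and is unknown.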

Other observations

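The genes around the members past 1.5-fold were also read. Within 500 kb of *Celsr1* lay 17 loci, of which 10 had an average of 1 FPKM or more. Their log2 ratios ran from −0.06 to 0.30 and 0 of them were past 1.5-fold. *Trmu*, a tRNA-modifying enzyme gene 0.07 kb away, was 8.59 FPKM in control lungs against 9.47 FPKM in the mutant. *Wnt7b*, an epithelial WNT ligand 305 kb away, was 49.6 FPKM in control lungs against 58.0 FPKM in the mutant. Within 500 kb of *Fat4* lay 1 locus, *Ankrd50*, at 12.9 FPKM in control lungs against 13.1 FPKM in the mutant. The genes *Trmu*, *Wnt7b* and *Ankrd50* were chosen after their values were seen.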
